A study of Mus musculus with 12 samples.

Results

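The genes described here are 10 secreted signals to myeloid cells and lymphocytes, chosen by name out of the 20432 genes measured: the chemokines Cxcl1, Cxcl2, Cxcl3, Cxcl5, Cxcl10, Ccl2, Ccl7 and Ccl20 and the colony-stimulating factors Csf1 and Csf2. They were measured by poly(A)-selected RNA sequencing in 6 mouse pancreatic ductal adenocarcinoma cell lines, numbered 52205, 52419, 52424, 53105, 53369 and 53371. Each line gave 1 Cre library, from cells infected with pBabe-Cre-puro retrovirus and selected in 2, 4 and 7 µg/ml puromycin, labelled as JAK1 knockout, and 1 library of the parental cells, labelled as wild type. Both cultures of a line grew in the same serum-containing medium, and the labels name no added cytokine. The 6 Cre and 6 parental libraries held 11477867 to 18044142 reads in genes. Infected cells without Cre were not analysed here, so infection, puromycin selection and time in culture cannot be told apart from loss of JAK1, and the labels do not say whether a Cre culture is 1 clone. Each line has 1 library per condition, so a test measures how alike the difference was across the 6 lines, and no spread within a line is known.

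The ELR+ CXC chemokines Cxcl1, Cxcl2, Cxcl3 and Cxcl5 bind the receptor CXCR2 and draw neutrophils out of the blood, and tumour cells of the pancreas are a known source of them. Ccl2 and Ccl7 recruit monocytes through CCR2, Ccl20 attracts lymphocytes and dendritic cells that carry CCR6, and Cxcl10 attracts T cells that carry CXCR3 and is a textbook product of interferon signalling. Csf1 and Csf2, the macrophage and the granulocyte-macrophage colony-stimulating factors, keep myeloid cells alive and make them divide. Most of these genes are induced through NF-kB, whose binding sites lie close to their start sites.

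The start regions of these genes share short sequence features. RefSeq promoter windows (GRCm38.p6) were found for 7 of the 10 genes, and the 250 bases before the annotated start were searched on both strands. A kappaB-like motif, GGG, then 3 bases of any kind, then TTCC or TCCC, was found in 6 of the 7 windows, against 8.80% of all 32851 windows of this length. The interferon response motif, GAAA repeated after 2 bases of any kind, was in 1, that of Cxcl10 (2.98% of all windows). The STAT motif TTCNNNGAA was in 0 of the 7 windows (7.02% of all), which says only that these letters are not in this stretch. Matches on opposite strands overlap where a site reads nearly the same both ways, and a match is a description of the letters, not of binding. The windows of 5 genes whose levels are compared below are shown 5′ to 3′, with kappaB and interferon response matches in capitals.
Cxcl1, chr5:90890995-90891244, plus strand: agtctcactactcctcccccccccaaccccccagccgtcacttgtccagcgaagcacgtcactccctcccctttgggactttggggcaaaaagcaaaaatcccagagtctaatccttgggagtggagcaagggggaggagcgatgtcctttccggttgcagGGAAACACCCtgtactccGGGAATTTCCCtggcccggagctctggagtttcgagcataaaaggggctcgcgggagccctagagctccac
Cxcl2, chr5:90903649-90903898, plus strand: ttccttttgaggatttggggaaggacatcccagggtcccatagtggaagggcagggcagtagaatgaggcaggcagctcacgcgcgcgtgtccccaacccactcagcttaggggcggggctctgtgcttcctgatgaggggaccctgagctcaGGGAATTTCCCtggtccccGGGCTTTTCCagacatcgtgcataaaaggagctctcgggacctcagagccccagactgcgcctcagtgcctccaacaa
Cxcl3, chr5:90785851-90786100, plus strand: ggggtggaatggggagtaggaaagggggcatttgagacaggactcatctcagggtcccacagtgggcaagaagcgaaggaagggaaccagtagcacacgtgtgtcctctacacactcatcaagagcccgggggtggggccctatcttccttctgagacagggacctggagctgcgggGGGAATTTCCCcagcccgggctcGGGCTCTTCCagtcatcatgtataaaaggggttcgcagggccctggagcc
Ccl20, chr1:83116516-83116765, plus strand: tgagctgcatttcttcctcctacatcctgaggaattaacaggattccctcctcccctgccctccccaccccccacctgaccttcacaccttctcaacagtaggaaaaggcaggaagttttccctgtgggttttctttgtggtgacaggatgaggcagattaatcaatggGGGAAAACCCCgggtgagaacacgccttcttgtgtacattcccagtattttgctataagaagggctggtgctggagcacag
Cxcl10, chr5:92348890-92349139, minus strand: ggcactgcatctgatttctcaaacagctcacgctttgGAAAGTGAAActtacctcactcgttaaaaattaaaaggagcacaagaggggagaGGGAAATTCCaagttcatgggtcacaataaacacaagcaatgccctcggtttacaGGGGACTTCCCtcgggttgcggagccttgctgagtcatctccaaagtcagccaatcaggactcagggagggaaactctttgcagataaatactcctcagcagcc
In Cxcl1 the kappaB stretch nearest the start begins 71 bases before it, in Cxcl3 50 bases, in Cxcl2 78 bases, in Ccl20 81 bases and in Cxcl10 104 bases. Cxcl1, Cxcl2 and Cxcl3 carry the same letters, GGGAATTTCC, at 71, 97 and 73 bases before the start. Csf1 held 1 match, at 154 bases, and the window of Csf2 held none of either form. The Csf2 window had a C/EBP motif, TTGCNNAA, at 145 bases. That motif was in 1 of the 7 windows and in 9.56% of all windows.

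Several of the genes lie in clusters. Cxcl5, Cxcl3, Cxcl1 and Cxcl2 lie in this order on chromosome 5 from 90759298 to 90905938, and Cxcl10 lies apart from them at 92346638 to 92348889 (GRCm38). Other chemokine genes lie between Cxcl5 and Cxcl3 and between Cxcl3 and Cxcl1. Ccl2 (82035577 to 82037452) and Ccl7 (82045712 to 82047525) are neighbours on chromosome 11, which also holds Csf2 (54247270 to 54249899), while Ccl20 is on chromosome 1 (83116766 to 83119167) and Csf1 on chromosome 3 (107741048 to 107760469). Cxcl2 and Cxcl3 are close copies. Their coding sequences were 89.8% identical and their transcripts shared an unbroken stretch of 110 bases, so the counting could split reads between them and their values are uncertain. The other pairs among the 4 ELR+ genes were 48.9% to 75.6% identical, with shared stretches of at most 23 bases. Annotated genes on the opposite strand cover Cxcl10 (Art3, at most 2 reads in any library), Ccl2 (Gm17268) and Csf2 (Gm12223), and the protocol names no step that marks strand.

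Jak1 itself, the targeted gene, was at 168 ± 44.2 CPM (the scaled unit of the deposited table, in which 1 read is worth 0.0569 to 0.0896 CPM) in Cre libraries and 170 ± 26.7 CPM in parental libraries (SD, n = 6 each). The gene total counts every exon, so it does not check the deletion. Libraries of a line resembled each other, with correlations of 0.73 to 0.95 between the Cre and parental deviations across genes. Markers of other cells differed in level. The fibroblast and stellate list, 9 of 10 markers in the table, summed to 10.3 to 1301 CPM in Cre and 10.3 to 2197 CPM in parental libraries, and the endothelial list, 6 of 6, to 0.896 to 5.32 CPM in Cre and 1.22 to 7.01 CPM in parental libraries. Ptprc, the pan-leukocyte marker, was at most 1.02 CPM in Cre and 0.344 CPM in parental libraries, and the macrophage marker Adgre1 had no more than 3 reads in any library. Other markers of the leukocyte list were present. Cd68 was at 1.48 to 9.23 CPM in Cre and 1.88 to 23.1 CPM in parental libraries. Fcgr3 reached 6.01 CPM in Cre and 12.8 CPM in parental libraries. The summed leukocyte list, 11 of 12 markers in the table, ran from 24.0 to 257 CPM in Cre and from 30.8 to 566 CPM in parental libraries, mostly through Cd14, a receptor component for bacterial products, which was lower in Cre cells of every line. The summed ductal list, 9 of 9 markers, ran from 360 to 13118 CPM in Cre and from 444 to 12690 CPM in parental libraries. Its lowest sums were in line 52419, where Cdh1 was at 0.615 CPM in Cre and 0.372 CPM in parental cells and Krt7 at 1.23 and 1.49 CPM, and Krt7 was also low in line 53369, at 4.79 CPM in Cre and 1.38 CPM in parental cells.

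Levels differed more between lines than between Cre and parental cells. Lines 52205, 52424 and 53371 held the highest levels of Cxcl5, Cxcl3, Ccl20 and Csf2, while lines 52419 and 53369 held the highest levels of Ccl2, Ccl7, Cxcl10 and Csf1. Cxcl5 ranged from 2.15 CPM (line 52419) to 325 CPM (line 53371) over the Cre libraries, with a median of 34.8, and from 3.05 CPM (52419) to 435 CPM (52205) over the parental ones, with a median of 144. Ccl2 ran the other way, from 0.0727 CPM (52424) to 131 CPM (52419) with a median of 4.77 in Cre libraries, and from 0.689 CPM (52424) to 176 CPM (52419) with a median of 10.7 in parental ones. Csf1 was at 56.5 CPM (52424) to 725 CPM (52419) with a median of 128 in Cre libraries, and at 39.9 CPM (53371) to 393 CPM (52419) with a median of 89.9 in parental ones. For all 10 genes the ranges of Cre and parental libraries overlapped, beside 0.055% of all genes tested that were lower and 0.0393% that were higher in Cre without overlap. The line with the highest mean exceeded that with the lowest 96.2-fold for Cxcl5, 184-fold for Ccl2 and 9.48-fold for Csf1 on the log2(CPM + 0.5) scale, against a median of 1.99-fold over the 12734 genes tested. The smallest such ratio among the 10 genes was 3.43-fold, for Cxcl2. As a log2 range the 95th percentile over all genes tested was 4.50. Of the 9 members tested 2 exceeded it, Cxcl5 (6.59) and Ccl2 (7.53).

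**Figure D1:**
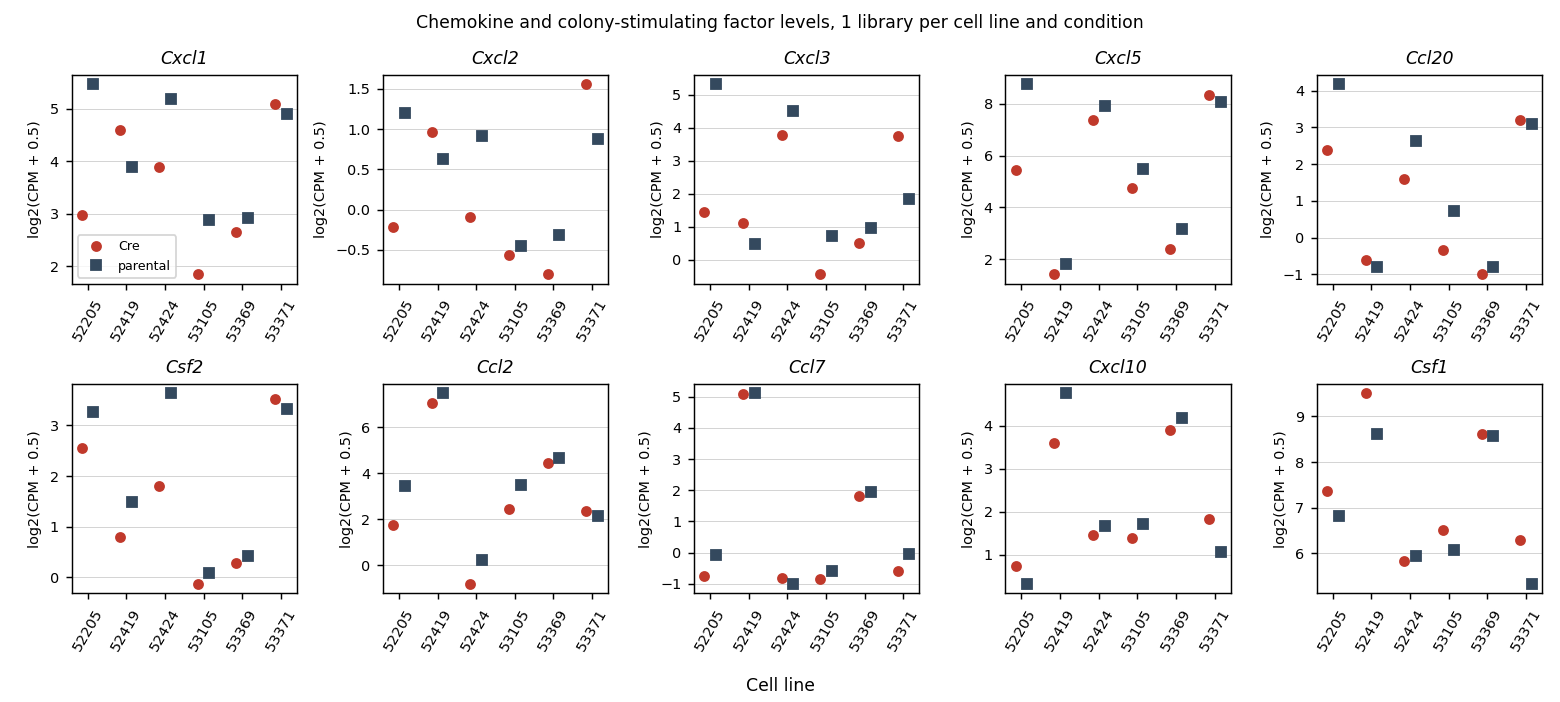
Level of each gene, as log2(CPM + 0.5), in 6 cell lines, with 1 point for the Cre library (circle, left) and 1 for the parental library (square, right) and a separate vertical scale for each gene. Cxcl5 spans 2.15 to 435 CPM between lines, and Ccl2 and Ccl7 are highest in both libraries of line 52419.

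Lines stood apart for some genes and not for others, judged only by whether the 2 libraries of neighbouring lines overlap. For Ccl2 line 52419 stood above 53369, and 53369 above 53105, without overlap, while 53105, 52205 and 53371 overlapped in turn and 52424 lay below all others. For Csf1 the order 52419, 53369, 52205, 53105 and 52424 had no overlap between neighbours. The first gap was narrow, with 393 CPM in parental cells of 52419 against 389 CPM in Cre cells of 53369. Line 53371, with the lowest mean, overlapped 52424 and also 53105. Its Cre library had 78.2 CPM of Csf1, against 66.9 CPM in parental cells of 53105. Cxcl1 had a single gap, between 52205 and 53369. It was narrow, with 7.35 CPM (82 reads) in Cre cells of 52205 against 7.04 CPM (92 reads) in parental cells of 53369. For Cxcl5 line 52205 spanned the gap between 52424 and 53105. Its parental library (435 CPM) also lay above both libraries of 53371, the line with the highest mean (325 CPM in Cre, 267 CPM in parental cells). For Cxcl10 the lines 52419 and 53369 overlapped each other and stood above the other 4.

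Per kilobase of coding-transcript exons, which allows a comparison between genes, Csf1 had the highest median level in the Cre libraries, 26.3 CPM per kb, followed by Cxcl5 (22.1), Cxcl1 (11.3) and Ccl2 (5.87). Cxcl5 led the parental libraries with 91.6 CPM per kb, before Cxcl1 (22.9), Csf1 (18.5) and Ccl2 (13.1). Median levels of Csf2 were 2.63 CPM per kb in Cre and 7.12 CPM per kb in parental libraries, and those of Cxcl2 and Ccl7 were under 1 CPM per kb in both. These are orders of medians over lines whose ranges overlap, and they were not tested.

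Ccl7 and Ccl20 were close to absent in part of the lines. Ccl7 had 435 reads in Cre and 455 reads in parental cells of line 52419 and 42 and 44 reads in those of 53369, but at most 2 reads in the other Cre libraries and at most 6 in the other parental ones. Ccl20 had 2 reads in Cre and 1 in parental cells of 52419 and 0 and 1 in those of 53369, where a count of 0 allows up to 0.214 CPM. It had 103 reads in Cre and 101 in parental cells of 53371. Reads are counts without molecular identifiers, so limits and intervals here cover counting error only. Fewer cells that make a transcript and less of it per cell cannot be told apart in bulk RNA.

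**Figure D2:**
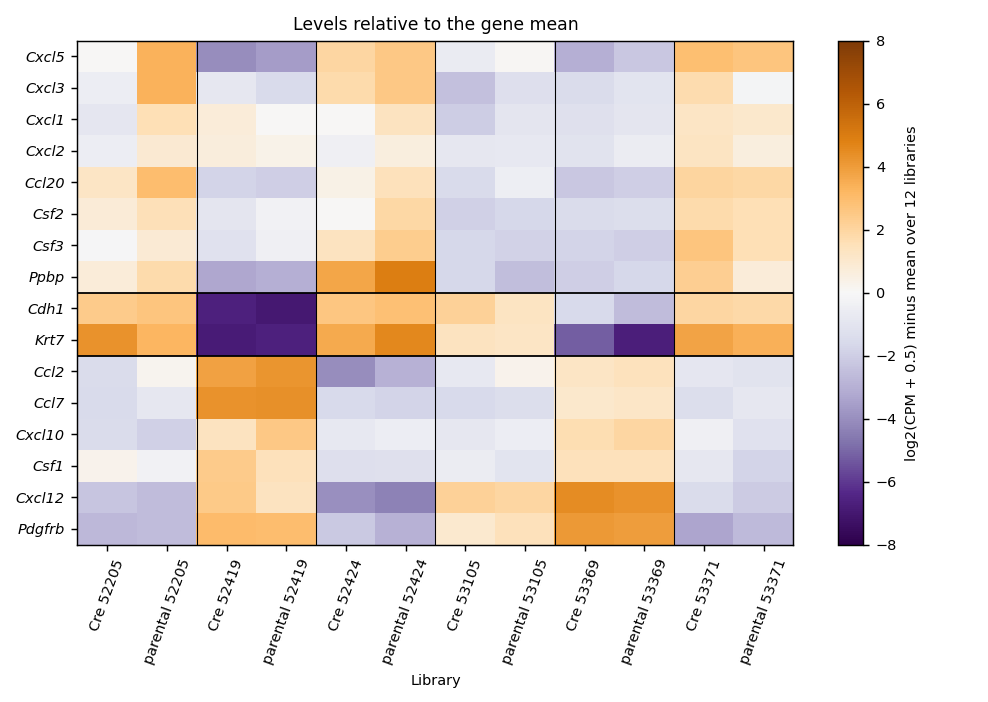
Level of each gene in each of the 12 libraries, as log2(CPM + 0.5) minus the gene's mean over the libraries, with Cre left of parental within each line. Cxcl5, Ccl20, Csf2 and Ppbp are highest in 52205, 52424 and 53371, the epithelial genes Cdh1 and Krt7 are lowest in 52419 and 53369, and Ccl2, Ccl7, Cxcl10, Csf1 and Pdgfrb are highest in 52419 and 53369.

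Some marker genes moved with this split, and their part in it was not tested. The fibroblast list was highest in 53369 (1301 CPM in Cre, 2197 CPM in parental cells) and next in 52419 (160 CPM in Cre, 196 CPM in parental cells). The summed mesenchymal list, 7 of 7 markers, did not follow the split, with 4031 CPM in Cre and 4319 CPM in parental cells of 52419 against 5675 CPM in Cre and 7986 CPM in parental cells of 52205. Krt7, a ductal keratin, was at 3845, 2355 and 2753 CPM in Cre cells of 52205, 52424 and 53371 and at 1857, 4733 and 2074 CPM in their parental cells. Sox9, another marker of the ductal list, did not follow the split. Its lowest levels were in 52205, at 17.9 CPM in Cre and 55.9 CPM in parental cells. Its highest were in 53105, at 183 CPM in Cre and 242 CPM in parental cells. Pdgfrb, a receptor of mesenchymal cells, was at 53.6 and 113 CPM in Cre cells of 52419 and 53369 and at 52.5 and 106 CPM in their parental cells, and at most 18.5 CPM in any other library. For Cxcl5 line 53105 lay between the groups, at 26.5 CPM in Cre and 44.1 CPM in parental cells. The mean log2 level of line 53105 was the lowest of the 6 lines for Cxcl1, Cxcl3 and Csf2. The genes whose levels over the 12 libraries were most like those of Cxcl5, by Pearson correlation of log2(CPM + 0.5), were Ehf (r = 0.98), an epithelial ETS transcription factor, Slc39a4 (0.97), a zinc transporter, and Prom1 (0.97), which encodes the surface protein CD133. The genes most like Ccl20 were Sprr2h (0.98), Fcgr3 (0.98) and Sema4f (0.96), and those most like Csf2 were Fos (0.98), an immediate-early transcription factor, Spns3 (0.97) and Padi4 (0.95). For Cxcl1 and Cxcl2 each was among the nearest to the other (0.93), with Gdpd5 (0.93 for Cxcl1, 0.90 for Cxcl2), the tight-junction gene Cldn1 (0.93 for Cxcl1) and Malt1 (0.92 for Cxcl2), a paracaspase of NF-kB signalling. Cxcl3 was nearest to Ppp2r2c (0.92), Esrp1 (0.92), an epithelial splicing regulator, and Mindy3 (0.91). Ccl2 was most like Lrig1, Accs and Itga7 (0.97, 0.97 and 0.96), Cxcl10 most like Ndrg3, Cops4 and Cul4a (0.97, 0.96 and 0.96), and Csf1 most like Ino80e, Rap1gds1 and Cdca7 (0.96, 0.96 and 0.95). The 12 points are 6 lines with 2 libraries each, so these correlations describe mainly how lines differ. Among the members, Cxcl5 correlated with Ccl20 (0.93) and Csf2 (0.75) and ran against Csf1 (-0.88), Cxcl10 (-0.84) and Ccl2 (-0.78).

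Set against their parental cells, the Cre cells show how these signals differ between cultures labelled as JAK1 knockout and as wild type. Infection and puromycin selection are part of that difference. None of the 9 genes that passed the filter on low values changed past an adjusted p of 0.05, where limma with Benjamini-Hochberg adjustment called 0.0236% of all 12734 genes tested lower and 0% higher. At an unadjusted p under 0.05 limma found 4 of the 9 lower, against 8.18% of all genes, and 1 higher, against 6.96%. These 5 were Ccl2, Cxcl5, Csf2, Ccl20 and Csf1, and the genes had been chosen with results of these libraries known. On the recovered reads edgeR called 0 of the 9 at an adjusted p under 0.05, with 0.0393% of all genes lower and 0% higher, and DESeq2 called 0 of the 9, with 1.63% lower and 0.487% higher. Ccl7, at or above 1 CPM in only 4 libraries, was not among the genes tested.

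Csf1 was the gene with estimates above 0. It averaged 251 ± 262 CPM in Cre and 175 ± 165 CPM in parental libraries (SD, n = 6 each), was higher in 5 of 6 pairs (17.9% of all genes were higher in at least 5), and had a log2 change of 0.46 (SE 0.14, 95% interval 0.14 to 0.78, limma adjusted p = 0.248). The exact 2-sided sign-flip permutation test over the 6 pairs gave p = 0.0938, and with 6 pairs it cannot go under 0.0313. In line 52419 Csf1 had 725 CPM in Cre against 393 CPM in parental cells, and in 53371 78.2 CPM in Cre against 39.9 CPM in parental cells. Counting error was small beside these differences. The ratio of Cre to parental had a 95% exact interval of 1.78 to 1.91 in 52419 and 1.76 to 2.19 in 53371, and the interval lay above 1 in 4 lines, those of 52424 and 53369 holding 1. Such an interval compares 2 libraries and not the conditions. Among the ligands of the same receptor Il34, which also binds the Csf1 receptor, was at 36.6 ± 16.5 CPM in Cre and 53.4 ± 25.4 CPM in parental libraries (log2 change -0.53, limma adjusted p = 0.247, lower in 5 of 6 pairs).

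Ccl2 was lower in 5 of 6 pairs, as were 17.8% of all genes. Its log2 change was -0.70 (SE 0.23, 95% interval -1.22 to -0.19, limma adjusted p = 0.258, exact sign-flip permutation p = 0.0938). The pairs differed in size. Line 52205 had 2.87 CPM in Cre against 10.4 CPM in parental cells, 53105 had 4.98 CPM in Cre against 10.9 CPM in parental cells, and 52419, where Ccl2 is most abundant, had 131 CPM in Cre against 176 CPM in parental cells. In 53371 it was not lower, at 4.56 CPM in Cre against 3.86 CPM in parental cells. Its neighbour Ccl7 had 33.4 CPM in Cre and 33.8 CPM in parental cells of 52419, with a 95% interval of the ratio from 0.865 to 1.13.

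**Figure D3:**
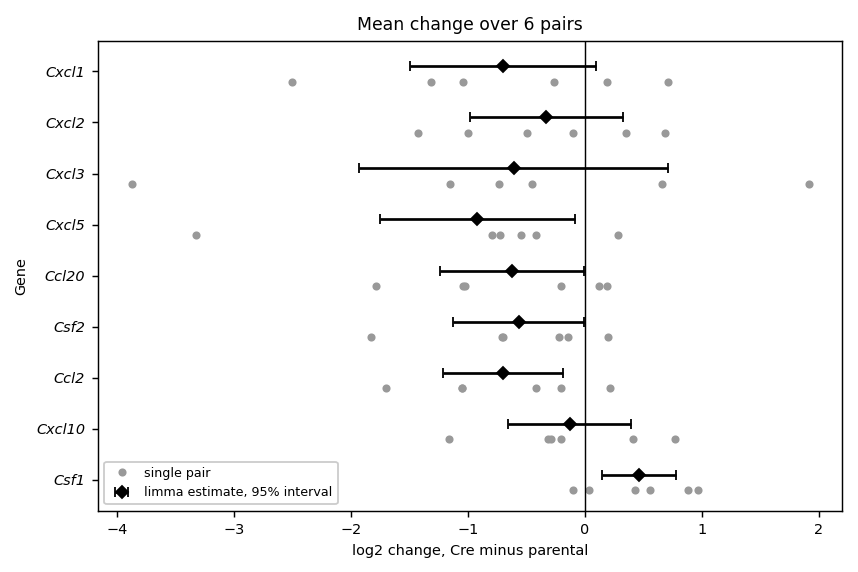
Estimated log2 change of 9 genes, Cre minus parental, from limma with cell line as a block (diamonds, with 95% intervals), over the changes of the 6 single pairs (grey points). The estimates run from -0.92 for Cxcl5 to 0.46 for Csf1, and for Cxcl3 the pairs spread from -3.88 to 1.91.

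The 4 ELR+ chemokines had estimates below 0 with wide intervals. Cxcl5 averaged 94.8 ± 128 CPM in Cre and 167 ± 176 CPM in parental libraries (SD, n = 6 each), with a log2 change of -0.92 (SE 0.37, 95% interval -1.76 to -0.087, limma adjusted p = 0.303), and was lower in 5 of 6 pairs. One line weighed heavily on it. Line 52205 had 43.1 CPM in Cre against 435 CPM in parental cells, a change of -3.32, while the other lines changed by -0.80 to 0.29, and without 52205 the estimate was -0.44 (adjusted p = 0.264). The exact interval of the Cre to parental ratio lay below 1 in 4 lines and above 1 in 53371 (325 CPM in Cre, 267 CPM in parental cells).

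Cxcl1 was at 3.09 to 33.6 CPM with a median of 10.8 in Cre libraries and at 6.88 to 43.9 CPM with a median of 21.8 in parental ones, and its log2 change was -0.70 (SE 0.35, 95% interval -1.50 to 0.091, limma adjusted p = 0.376). Of the 6 pairs 4 lay below 0 and 2 above. Lines 52205 (7.35 CPM in Cre, 43.9 CPM in parental cells), 52424 (14.3 CPM in Cre, 36.2 CPM in parental cells) and 53105 (3.09 CPM in Cre, 6.88 CPM in parental cells) were lower beyond counting error. Line 52419 was higher beyond it, with 23.6 CPM in Cre and 14.3 CPM in parental cells. Without 52205 the estimate for Cxcl1 was -0.34. Cxcl3 had the widest spread between pairs. It was at 2.24 CPM in Cre against 39.7 CPM in parental cells of 52205, but at 12.9 CPM in Cre against 3.07 CPM in parental cells of 53371. Its log2 change was -0.61 (SE 0.59, 95% interval -1.93 to 0.71, limma adjusted p = 0.644), and without 52205 it was 0.046. Cxcl2 had between 1 and 29 reads in Cre and between 4 and 24 reads in parental libraries and a log2 change of -0.33 (SE 0.29, limma adjusted p = 0.605). Its ratio lay below 1 beyond counting error in 2 lines, and without 52205 the estimate for Cxcl2 was -0.11.

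Ccl20 and Csf2 had estimates below 0 as well. Ccl20 had a log2 change of -0.62 (SE 0.27, 95% interval -1.24 to -0.0085, limma adjusted p = 0.326, lower in 4 of 6 pairs), with 4.75 CPM in Cre against 17.6 CPM in parental cells of 52205 and 2.55 CPM in Cre against 5.68 CPM in parental cells of 52424. Without 52205 the estimate for Ccl20 was -0.39, and on the recovered reads edgeR gave -1.05 and DESeq2 -1.07. Csf2 had a log2 change of -0.57 (SE 0.25, 95% interval -1.12 to -0.0097, limma adjusted p = 0.325, lower in 5 of 6 pairs). In 52424 it was at 2.98 CPM in Cre against 11.9 CPM in parental cells, and in 53371 at 10.9 CPM in Cre against 9.45 CPM in parental cells. Without 52424 the estimate for Csf2 was -0.31. Both genes had few reads in lines 52419, 53105 and 53369.

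Cxcl10, the interferon-induced chemokine of the set, was at 1.17 to 14.4 CPM with a median of 2.65 in Cre libraries and at 0.751 to 26.4 CPM with a median of 2.73 in parental ones. Its pairs divided 4 below and 2 above 0, with a log2 change of -0.13 (SE 0.23, 95% interval -0.65 to 0.39, limma adjusted p = 0.814), and the sign turned without 52419 (0.075). Line 52419 had 11.5 CPM in Cre against 26.4 CPM in parental cells, and 53369 had 14.4 CPM in Cre against 17.7 CPM in parental cells. Line 53371 had 3.04 CPM in Cre against 1.58 CPM in parental cells, higher beyond counting error. Other interferon-induced genes from a list of 13 had larger estimates. Of 7 tested 6 were below 0 and 4 were lower at an unadjusted p under 0.05, with a median of -0.95 beside -0.00024 over all genes, and limma called 0 at an adjusted p under 0.05, edgeR 0 and DESeq2 4. Irf7, an interferon regulatory factor, was at 1.64 ± 1.15 CPM in Cre and 10.8 ± 16.5 CPM in parental libraries (log2 change -1.64, limma adjusted p = 0.253), and in 52419 it was at 1.08 CPM in Cre against 44.2 CPM in parental cells. Ifitm3 had a log2 change of -0.95, Ifit1 of -1.15 and Irf9 of -1.08, each lower in 6 of 6 pairs (4.56% of all genes were). The difference between Cxcl10 and these genes was not tested.

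**Figure D4:**
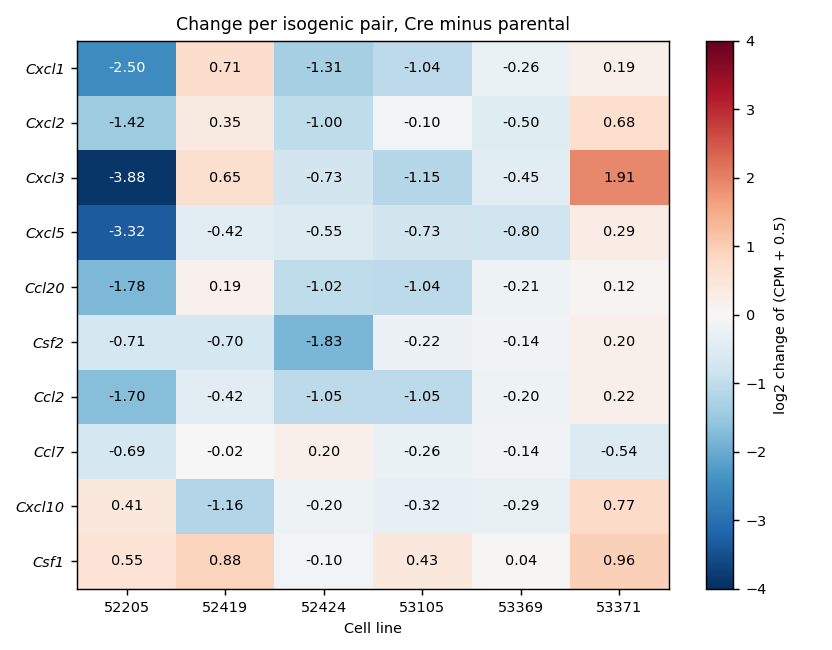
Log2 change of (CPM + 0.5), Cre minus parental, for each gene in each of the 6 isogenic pairs (blue lower, red higher in Cre). Line 52205 has the lowest values for Cxcl1, Cxcl2, Cxcl3, Cxcl5, Ccl20, Ccl2 and Ccl7, and line 53371 has 9 of 10 values above 0.

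Read by line, the 10 genes had different patterns, while 47.3% to 52.9% of all genes tested were lower in each line and the median change of all genes lay between -0.029 and 0.011. In 52205 8 of 10 were lower, 7 of them beyond counting error, with a median log2 change of -1.56. Line 52424 had 9 lower, 7 beyond counting error, with a median of -0.87. Lines 53105 and 53369 each had 9 lower, 5 and 2 of them beyond counting error, with medians of -0.52 and -0.23. Line 52419 was even, with 5 lower and 5 higher and a median of 0.085. Line 53371 had 9 of 10 higher, 4 beyond counting error (Cxcl3, Cxcl5, Cxcl10 and Csf1), with a median of 0.25. With 1 library per line and condition the difference between lines could not be tested. The share of all genes beyond counting error in each line was not computed, so these counts have no background. For Jak1, whose mean log2 change was -0.045, the interval of the ratio was 0.880 to 0.986 in 52205 and 1.21 to 1.35 in 52424. The share of the sum of squares of log2 levels that lay between lines was 69.2% for Cxcl1, 72.4% for Cxcl2, 72.2% for Cxcl3 and 92.1% for Cxcl5, and 90.4% to 95.9% for Ccl20, Csf2, Ccl2, Cxcl10 and Csf1, beside a median of 84.3% over all genes. The share that lay between Cre and parental ran from 0.214% (Cxcl10) to 9.45% (Cxcl1), beside a median of 2.37% over all genes. The spread of the change between pairs was 0.43 (Csf1) to 1.95 (Cxcl3) as an SD, against a median of 0.29 and a 95th percentile of 0.81 over all genes, which 3 members exceeded (Cxcl1, Cxcl3 and Cxcl5).

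Few other chemokines reached the level needed for a test. In the wider list of CXC, CX3C and XC chemokines 4 were tested, 3 with estimates below 0, and both counts include Cxcl10. Cxcl12, which holds CXCR4-bearing cells in tissues, was at 134 ± 210 CPM in Cre and 106 ± 183 CPM in parental libraries and was higher in 6 of 6 pairs (4.11% of all genes were), with a log2 change of 0.47 (SE 0.13, limma adjusted p = 0.228). Cxcl16 (-0.41, adjusted p = 0.342) and Cx3cl1 (-0.33, adjusted p = 0.493) did not pass limma with Benjamini-Hochberg adjustment. Of 19 CC chemokines 14 were in the table and 4 were tested, with a median of -0.32. These 4 include Ccl2 and Ccl20, described above, so the median is not that of other chemokines alone. Ccl9 had an estimate of 0.70 (adjusted p = 0.312, higher in 5 of 6 pairs), with 14.7 CPM in Cre against 4.21 CPM in parental cells of 52205, and Ccl25 one of -0.012. Ccl1, Ccl3 and Ccl4 had no more than 3 reads in any library.

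Receptors for these ligands were mostly at low levels or not detected. Of 18 receptors of chemokines and colony-stimulating factors 14 were in the table and 2 passed the filter. Ccr2, Ackr2, Ackr4, Csf2rb and Csf2rb2 had no more than 3 reads in any library. Csf1r, the receptor of Csf1, was at 0.119 to 2.20 CPM in the Cre libraries, highest in 53371, and reached 2.93 CPM in parental cells of 52424. Ackr3, a scavenging receptor of Cxcl12, was at 55.8 ± 32.1 CPM in Cre and 65.7 ± 24.7 CPM in parental libraries (log2 change -0.32, limma adjusted p = 0.295). Csf2ra, the ligand-binding subunit for Csf2, was at 2.51 ± 2.10 CPM in Cre and 4.29 ± 3.29 CPM in parental libraries (log2 change -0.59, limma adjusted p = 0.288, lower in 5 of 6 pairs). Both were lower at an unadjusted p under 0.05.

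Regulators of these chemokines had estimates on both sides of 0. Of 15 NF-kB subunits and inhibitors, all tested, 9 had estimates below 0 with a median of -0.016, and 1 was lower at an unadjusted p under 0.05. That one was Bcl3, a nuclear IkB protein, at 25.4 ± 16.2 CPM in Cre and 34.0 ± 16.9 CPM in parental libraries (log2 change -0.65, limma adjusted p = 0.210, lower in 6 of 6 pairs). Nfkbiz, another nuclear IkB protein, was at 16.5 CPM in Cre against 76.4 CPM in parental cells of 52205 and at 75.9 CPM in Cre against 51.7 CPM in parental cells of 53371 (log2 change -0.56, adjusted p = 0.376 by limma). Relb was at -0.29 and Chuk at 0.092. The 14 upstream receptors and adaptors had a median of -0.037, with 0 past an unadjusted p under 0.05 and Il17rc at 0.23, Il1rap at -0.33, Traf3ip2 at -0.13 and Tlr3 at -0.33. Among 7 factors that set the lifetime of chemokine transcripts 4 had estimates below 0. Arid5a, which protects such transcripts, was at 30.3 ± 10.6 CPM in Cre and 41.2 ± 4.68 CPM in parental libraries (log2 change -0.50, limma adjusted p = 0.248), and the decay factors Zfp36l1 (-0.28) and Zfp36 (-0.27) were lower in 6 and 5 of 6 pairs, with Elavl1 at 0.084. Of 5 tested genes for chemokine carriers and sheddases 5 had estimates below 0 with a median of -0.073, among them the proteoglycan Sdc4 at -0.29 (limma adjusted p = 0.300, lower in 6 of 6 pairs), Sdc1 at -0.16, Gpc1 at -0.059 and the protease Adam10 at -0.073. Over the 9 lists of chemokines, cytokines, receptors and regulators, that of interferon-induced genes left aside, limma, edgeR and DESeq2 called 0 genes at an adjusted p under 0.05. Among the cell type markers limma called 0, edgeR called Pdgfra (log2 change by limma -0.71, edgeR adjusted p = 0.0391) and DESeq2 called Pdgfra, Cd14 (-0.50), Fn1 (-0.57) and Krt19 (0.49). Of the 13 growth factors and cytokines of myeloid cells 7 were tested, with a median of 0.018 and Csf3, the granulocyte colony-stimulating factor, at -0.21. Csf1 and Csf2 are among these 7.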

How the data were processed

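Of the 2 deposited tables, the linear one gives each gene a signal, its read count that the authors divided by a scaled library size, and the second deposited table holds log2 values of 10903 of the genes. Tools listed in the submitters' processing notes are edgeR, featureCounts and FastQC 0.11.9, with the builds mm10 and GRCm38. The aligner is not given in the sources used here. All values above 0 were whole multiples of 1 step per library within 0.01, so reads were recovered (0.0569 to 0.0896 CPM per read, 11477867 to 18044142 reads per library). Symbols came from RefSeq (19448 genes) and GENCODE M21 (11 genes).

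Genes at or above 1 CPM of the column total in at least 6 libraries (12734) were fitted as log2(value + 0.5) with limma-trend (limma 3.58.1, R 4.3.3), Cre against parental, 2-sided, with Benjamini-Hochberg adjustment over these genes. On this scale the changes of low genes are understated. The cell line was a block, since the series design gives 6 isogenic pairs. As a check, each Cre library's deviations from its group mean were most like those of its own parental line (correlation 0.73 to 0.95). Single genes also had an exact sign-flip permutation test. Exact binomial (Clopper-Pearson) 95% intervals of the ratio of 2 libraries cover counting error only. edgeR 4.0.16 (quasi-likelihood) and DESeq2 1.42.0 were run on the recovered reads, and pseudocounts, filters, scalings and weights were varied and each pair left out. Fits with a pair left out kept the same genes, a choice made after a first version that filtered anew had been seen. The fit was tested on simulated data. Coding identity was computed over the longest reading frames of GENCODE transcripts.

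The genes and lists were chosen with earlier results of these data known. By rule, the text names the 10 genes, Jak1, up to 4 tested genes with the smallest p per list, the 3 genes most like each tested member and markers near 0. Others (Krt7, Krt19, Cdh1, Sox9, Pdgfra, Pdgfrb, Fn1, Cd14, Cd68, Csf1r, Ifit2, Ppbp, Mthfd2l, Il1a, Tnf) were named after their values were seen. Some genes of the lists are not reported here.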

Additional observations from a re-analysis of the deposited data

Results flagged for a closer look

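The change of Cxcl5 in line 52205 stood apart from that in the other 5 lines. It was -3.32 on the log2 scale (43.1 CPM in Cre, 435 CPM in parental cells), and its gap to the nearest pair was 0.699 of the whole range of the 6 pairs, above the 5% critical value of Dixon's test. It was the only such case among 30 groups of 6 values examined, which were the levels of the 10 genes in Cre and in parental libraries and their changes over pairs, and chance alone gives such a value in about 5% of groups. The same pair held the lowest change of Cxcl1, Cxcl2, Cxcl3, Ccl20, Ccl2 and Ccl7. For Ccl7 this rests on 1 read in Cre and 6 reads in parental cells, within counting error. For Cxcl2 it rests on 4 reads in Cre and 24 reads in parental cells. The share of all genes with their lowest change in 52205 was not computed.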

How the results depend on the processing

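No member passed an adjusted p of 0.05 by limma with the settings above or under any of the alternatives run. Of 166 values of members under the alternatives 164 kept their sign and their side of the threshold, and 2 turned, Cxcl3 to 0.046 without 52205 (-1.11 to 0.046 with each pair left out) and Cxcl10 to 0.075 without 52419 (-0.31 to 0.075). Leaving out 1 pair gave -1.16 to -0.44 for Cxcl5, -0.89 to -0.50 for Ccl2 and 0.36 to 0.57 for Csf1, and library weights gave -0.39 for Cxcl1. Over all alternatives the lowest adjusted p was 0.0992 for Csf1 (DESeq2) and 0.138 for Ccl2 (DESeq2). The count of members at an unadjusted p under 0.05, 5 as reported, was 3 with a pseudocount of 1, with no filter, on the deposited log2 table (which holds 4 members) and with library weights, and 2 to 6 with 1 pair left out. Over all genes the count past an adjusted p of 0.05, 3 as reported, was 0 with no filter, 5 by edgeR, 270 by DESeq2, 34 with library weights and 0 to 5 with 1 pair left out. Without the replicate block, that is with the pairing of lines ignored, both counts were 0. Among other named genes Ccl25 turned to 0.080 with library weights, 0.071 without 52424 and 0.024 without 53371 (-0.0673 to 0.071 with each pair left out), and Gpc1 to 0.015 without 52419 (-0.13 to 0.015). DESeq2 called Ifitm3, Ifit1, Irf9 and Irf7, and the fit with library weights called Ifitm3 (adjusted p = 0.0324). The causes were not tested. Cxcl2, Ccl7, Ccl20 and Csf2 had few reads in several libraries, which limits their values.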

Other observations

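Il1a, the alarmin cytokine that induces neutrophil chemokines in epithelial cells, lay below the filter on low values and was named after its values were seen. It was at 0.896 CPM in Cre against 13.0 CPM in parental cells of 52205, at 2.18 CPM in Cre against 23.5 CPM in parental cells of 52424, and at 7.61 CPM in Cre against 6.22 CPM in parental cells of 53371, with at most 0.461 CPM in any other Cre and 0.284 CPM in any other parental library. Tnf, also below the filter, was at 0.269 CPM in Cre against 1.73 CPM in parental cells of 52205, at 0.873 CPM in Cre against 2.32 CPM in parental cells of 52424, and at 8.45 CPM in Cre against 6.54 CPM in parental cells of 53371.

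Within the chemokine cluster on chromosome 5, Ppbp, also an ELR+ CXC chemokine, lies between Cxcl5 and Cxcl3. Ppbp changed by -1.04 in 52205, -0.20 in 52419, -1.19 in 52424, 0.84 in 53105, -0.30 in 53369 and 1.51 in 53371. Over the 6 pairs its log2 change was -0.062 (limma adjusted p = 0.951). It was at 62.2 CPM in Cre against 142 CPM in parental cells of 52424, the highest levels of either group. Mthfd2l, a gene of folate metabolism just beyond Cxcl2, changed by -0.27 to 0.29 over the 6 pairs.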
